A study of Rattus norvegicus with 19 samples.

Results

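Hippocampal mast cells of newborn rats were compared between postnatal day 7 (PN7) and postnatal day 2 (PN2), as 3 libraries against 4, out of 19 libraries of sorted mast cells in the study. The 7 libraries were chosen by tissue and age alone, and every transcript that passed a filter on low counts was tested. All animals were wild type per the labels. Pups of both ages were perfused under anesthesia, immune cells were enriched on Percoll, and a flow cytometer collected viable singlets that stained strongly for CD45 and for FcεRI but not for CD11b. Each library pools 6 animals, so the spread between libraries is a spread between pools and animals within a pool cannot be separated. The other libraries used below are 2 from hypothalamus at PN2, 1 from hypothalamus at PN7, 5 from skin at PN2 and 4 from bone marrow at PN2, sorted by the same gate. The gate defines the cells. The sorted cells could not be checked against mast cell genes such as the FcεRI subunits, the stem cell factor receptor or granule proteases, because the transcript identifiers of the table are not paired with gene names in the sources used here.

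Mast cells are granulated immune cells that bind IgE through the high-affinity receptor FcεRI and release histamine, proteases and lipid mediators when activated. They enter tissues as immature precursors, first from the yolk sac and later from blood-forming organs including the bone marrow, and fill their granules once resident. In the newborn brain they lie mainly in the meninges and along vessels close to the hippocampus and thalamus. The study's title names proliferation of these cells near the hippocampus and effects on other immune cells; the comparison here addresses how the RNA of the hippocampal cells changed over the first postnatal week.

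Depth went with age. The 4 PN2 libraries held 19935250 to 22967152 estimated counts and the 3 PN7 libraries 10329777 to 12870442, without overlap. Levels are given as CPM, counts per 1000000 of the library's scaled total. With the hippocampal libraries thinned to the smallest of the 7 totals, 1834 transcripts were called, as in the full data, and 1731 of them were the same transcripts changed in the same direction. In hypothalamus depth ran the other way: the PN7 library held 9792422 counts and the PN2 libraries 5495252 and 5607810. Pairs of PN2 libraries correlated at r of 0.938 to 0.968 across transcripts and pairs of PN7 libraries at 0.917 to 0.939, while pairs across ages gave 0.876 to 0.925. These are correlations over transcripts, which are not independent replicates.

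By PN7 the hippocampal cells held more of 703 transcripts and less of 1131, out of 20521 tested (adjusted p below 0.05, edgeR's quasi-likelihood test with Benjamini-Hochberg adjustment). That is 3.43% of the tested transcripts higher and 5.51% lower, or 8.94% in all. In bulk RNA, more cells that carry a transcript and more of it per cell cannot be told apart. The changes were mostly moderate. Of the transcripts that rose, 392 changed by less than 2-fold, 198 by 2-fold to 4-fold, 69 by 4-fold to 16-fold and 44 by more. Of those that fell, 453 changed by less than 2-fold, 459 by 2-fold to 4-fold, 147 by 4-fold to 16-fold and 72 by more. The median log2 fold change was 0.92 among risers and -1.17 among fallers, beside 0.00 over all tested transcripts. Without PN7 replicate 2 the call count was 1073, with 372 higher and 701 lower. The higher count was 435, 457 and 432 without PN2 replicate 2, PN2 replicate 3 and PN7 replicate 1, and 1071 and 1110 without hypothalamus PN2 replicate 1 and 2, which are not part of this contrast. DESeq2 called 3099 transcripts, limma voom (here and below with quality weights per library) 4309 and a fit of the 7 hippocampal libraries alone 2942. These held 1808, 1796 and 1678 of the 1834 in the same direction.

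**Figure D1:**
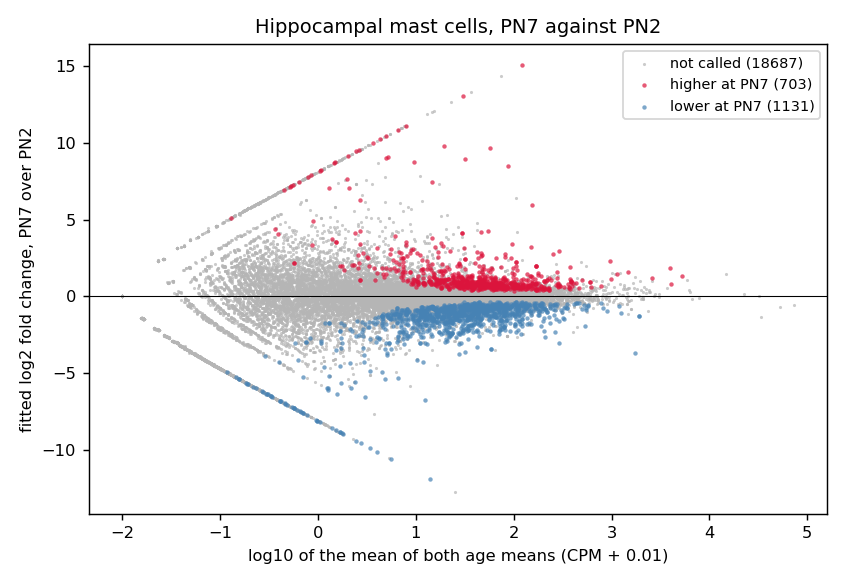
Fitted log2 fold change of PN7 over PN2 (vertical) against the log10 mean level in CPM (horizontal) for each of the 20521 transcripts tested, with the 703 called higher in red and the 1131 called lower in blue. Most called transcripts lie between 10 and 1000 CPM at moderate folds; the straight edges on the left are transcripts with 0 counts at one age, whose fitted fold depends on the fit's prior count.

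The calls lay mainly among transcripts of middle and high level. Of the 7408 transcripts with a mean of 10 to 100 CPM over the 7 libraries, 450 rose and 742 fell, 16.1% in all. Between 100 and 1000 CPM, 136 of 1591 rose and 164 fell, 18.9% in all. Above 1000 CPM, 6 of 83 rose and 5 fell. Below 1 CPM only 57 of 6321 were called, and 836 tested transcripts had no count in any of the 7 libraries. Among called transcripts the change was larger where the level was low. The median log2 fold change of called risers was 2.19 between 1 and 10 CPM and 0.70 between 100 and 1000 CPM. At low counts only a large fold can pass the threshold. The share called and the size of a called change by level thus depend on the threshold. They do not show that transcripts of low level changed more or less often.

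The groups did not overlap for most called transcripts. All 3 PN7 libraries lay above all 4 PN2 libraries for 681 of the 703 risers, and below them for 1113 of the 1131 fallers. Such separation also occurred for 13.6% of all tested transcripts upward and 15.2% downward, so on its own it sets few transcripts apart. Among the 100 most abundant transcripts of the hippocampal libraries, 8 rose and 6 fell. The single most abundant one averaged 87410 ± 31055 CPM at PN2 (SD, n = 4) and 58599 ± 2405 CPM at PN7 (SD, n = 3). Its log2 fold change of -0.58 ± 0.60 (SE) did not pass the threshold (adjusted p = 0.616, edgeR).

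Among abundant transcripts, 2 that rose and 2 that fell are given by identifier. They are, in each direction, the one with the smallest p and the one with the largest difference in CPM, among the 174 risers and 214 fallers with at least 100 CPM in the higher group, separate groups and values of their own. Separation of the ages in hippocampus was thus a condition of the choice. The tests of the difference between regions given for them below contain the hippocampal change on which they were chosen. No gene name or sequence is matched to these identifiers here, and their positions in the Rnor_6.0 genome were not looked up.

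Transcript ENSRNOT00000079106.1 rose most clearly. The 4 PN2 libraries held 82.9, 61.7, 53.7 and 66.6 CPM of it, in the order of their replicate numbers, and the 3 PN7 libraries held 420, 464 and 444 CPM. Every PN7 library thus lay at least several times above every PN2 library, and the PN7 values were close together. The mean went from 66.2 ± 12.3 CPM (SD, n = 4) to 442 ± 22.0 CPM (SD, n = 3). This was a rise of 2.74 ± 0.20 (SE) on the log2 scale, with an adjusted p of 6.10e-07 by edgeR. In hypothalamus the values of both ages overlapped: the PN2 libraries held 109 and 88.7 CPM and the PN7 library 105 CPM. The age change in hippocampus exceeded that in hypothalamus by 2.66 ± 0.39 on the log2 scale (SE; adjusted p = 0.00261, edgeR), with the lone PN7 hypothalamus library assumed to vary like the other groups. Outside the brain the transcript was high in skin, at 1343 ± 333 CPM (SD, n = 5), and low in bone marrow, at 28.3 ± 4.42 CPM (SD, n = 4). The PN7 hippocampal level lay between that of PN2 hippocampus and that of skin.

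The largest gain in CPM was that of ENSRNOT00000013159.5. The PN2 libraries held 2393, 1985, 1541 and 952 CPM and the PN7 libraries 6162, 6860 and 5812 CPM. The PN2 libraries were more spread than the PN7 ones, and the groups stayed apart. The mean rose from 1718 ± 618 CPM (SD, n = 4) to 6278 ± 534 CPM (SD, n = 3). On the log2 scale it rose by 1.87 ± 0.32 (SE), with an adjusted p of 0.00119 by edgeR. Skin libraries averaged 6440 ± 2104 CPM (SD, n = 5) and bone marrow libraries 726 ± 14.3 CPM (SD, n = 4), so that this transcript too was higher in skin than in marrow. In hypothalamus it held 2386 and 984 CPM at PN2 and 2076 CPM at PN7, a value between both PN2 libraries. The difference between regions in its age change did not pass the threshold (log2 difference 1.57 ± 0.62, SE; adjusted p = 0.204, edgeR).

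ENSRNOT00000091551.1 fell most clearly. It held 120, 107, 134 and 110 CPM at PN2 and 34.5, 20.6 and 19.8 CPM at PN7. All PN7 libraries lay far below all PN2 libraries. The mean fell from 118 ± 12.3 CPM (SD, n = 4) to 25.0 ± 8.29 CPM (SD, n = 3). The fitted change was -2.24 ± 0.19 (SE) on the log2 scale, with an adjusted p of 2.19e-06 by edgeR. In hypothalamus the level was 84.7 and 78.8 CPM at PN2 and 44.1 CPM at PN7, in the same direction but short of the threshold (log2 fold change -0.89 ± 0.29, SE; adjusted p = 0.119, edgeR). The hippocampal change minus the hypothalamic one was -1.35 ± 0.32 on the log2 scale (SE; adjusted p = 0.0359, edgeR). Bone marrow held more than any other group, 245 ± 13.6 CPM (SD, n = 4), and skin held 70.3 ± 9.82 CPM (SD, n = 5).

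The largest loss in CPM, that of ENSRNOT00000022113.4, was uneven between pools. It held 3924, 1412, 1368 and 6104 CPM at PN2 and 75.7, 27.6 and 638 CPM at PN7. Every PN7 library lay below every PN2 library, yet values within an age differed several-fold. The mean fell from 3202 ± 2274 CPM (SD, n = 4) to 247 ± 339 CPM (SD, n = 3). The fitted change was -3.70 ± 1.10 (SE) on the log2 scale, and its adjusted p of 0.0460 (edgeR) was just inside the threshold. Leaving out PN2 replicate 1, 2, 3 or 4, or PN7 replicate 1 or 2, ended the call, with adjusted p from edgeR between 0.0526 and 0.152. Over all 19 other fits the adjusted p ran from 0.000264 to 0.152, and 10 of them lost the call. The transcript was nearly confined to hippocampus in these libraries: skin averaged 0.164 ± 0.264 CPM (SD, n = 5), bone marrow 0.0717 ± 0.0874 CPM (SD, n = 4), hypothalamus held 29.0 and 0.829 CPM at PN2, and its PN7 library had 0 counts.

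**Figure D2:**
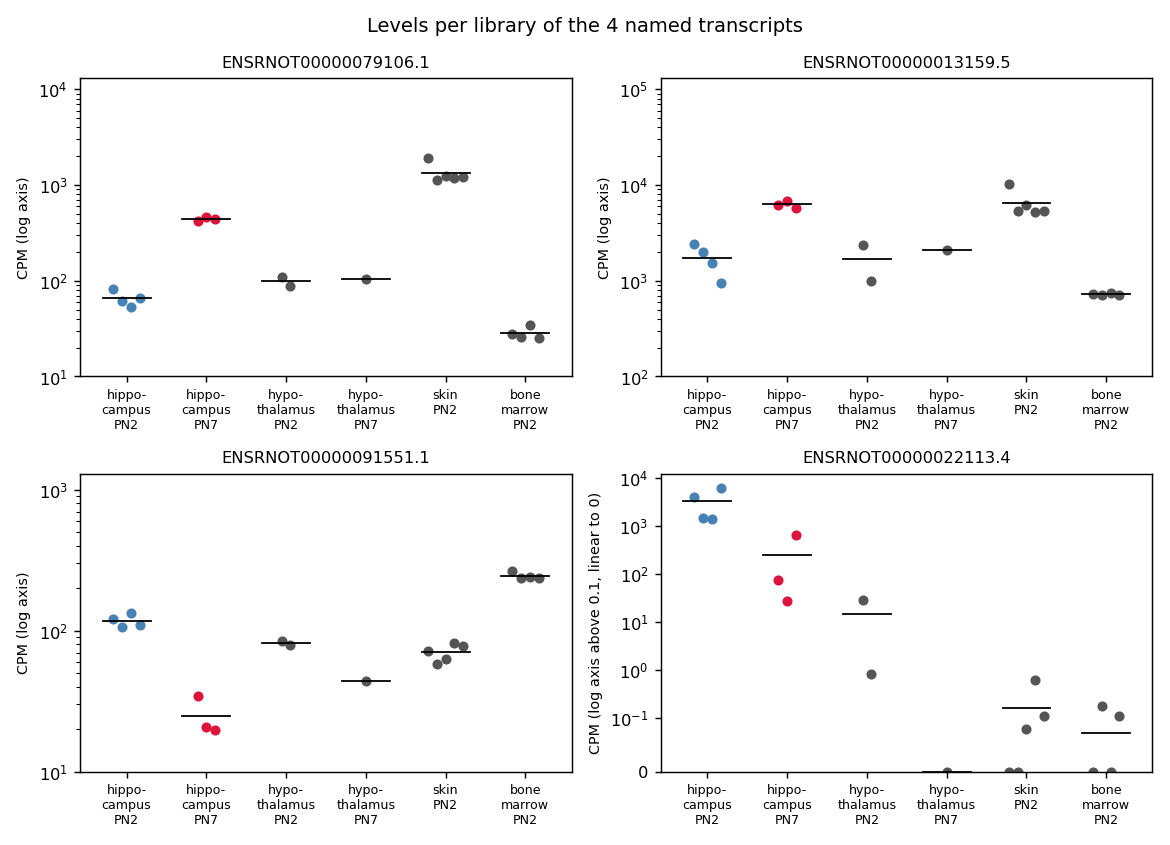
CPM of the 4 named transcripts (vertical, log axes; the last panel is linear between 0 and 0.1) in each of the 19 libraries by group; points are libraries and lines are group means. PN7 hippocampus (red) stands apart from PN2 hippocampus (blue) in all 4 panels, as the choice of these transcripts required. The first panel shows 420 to 464 CPM against 53.7 to 82.9 CPM, and the last a several-fold spread within each age.

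A small set of transcripts had 0 counts at 1 age and at least 1 CPM in every library of the other age. With 0 counts in all PN2 libraries and at least 1 CPM in each PN7 library there were 38 transcripts, of which 13 passed the test. Their mean level at PN7 ran from 1.66 to 241 CPM with a median of 8.68 CPM. Against a floor of 3 counts over the PN2 group they were at least 45.4-fold to 6600.5-fold higher. In both directions the choice fixed the direction and much of the fold, and the test used the same values. Over all tested transcripts 3.43% were called higher and 5.51% lower. Of the 38, 2 reached 1 CPM in bone marrow, 18 did so in skin, and 18 reached it in neither. Over all tested transcripts 67.8% reached it in bone marrow, 68.2% in skin and 25.6% in neither. In hypothalamus 25 of the 38 had counts at PN2 and 27 at PN7. In the other direction 18 transcripts had 0 counts in all PN7 libraries and at least 1 CPM in each PN2 library, and 12 of them passed the test. Their mean at PN2 ran from 1.44 to 27.8 CPM, at least 15.9-fold to 307-fold above the floor of 3 counts over the PN7 group. Of these 18, 13 reached 1 CPM in skin, 10 in bone marrow and 3 in neither, to be read beside the shares of all tested transcripts given above. In hypothalamus 12 of the 18 had counts at PN2 and 8 at PN7. The share of all tested transcripts with counts in hypothalamus was not taken, so the hypothalamic counts of both sets are descriptions only. At equal depth the sets held 42 and 16 transcripts.

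Both sets of called transcripts held a minor part of the RNA in each hippocampal library. Together the 703 risers held 47209, 43552, 45593 and 44208 CPM in the PN2 libraries and 90795, 97565 and 90476 CPM in the PN7 libraries. The 1131 fallers held 91697, 95718, 90597 and 93439 CPM at PN2 and 45981, 44055 and 43980 CPM at PN7. These hippocampal sums describe the chosen transcripts and are no test, since the same libraries chose them. The 10 risers with the largest differences made up 39.0% of the risers' summed gain, and the corresponding 10 fallers 20.8% of the fallers' loss, so the losses were spread over more transcripts.

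In tissues that played no part in choosing them, the same transcripts stood as follows. The risers' sum was 69820 ± 8982 CPM over the skin libraries (SD, n = 5). Over the bone marrow libraries it was 156203 ± 48555 CPM (SD, n = 4). Bone marrow replicate 4 held 83846 CPM, and the other 3 marrow libraries averaged 180322 ± 6780 CPM (SD, n = 3). In marrow 5 transcripts made up 70.7% of that sum. For the fallers the skin libraries gave 71808 ± 2638 CPM (SD, n = 5). The bone marrow libraries gave 95367 ± 2433 CPM (SD, n = 4). The faller sum of PN2 hippocampus was thus near that of bone marrow, and the PN7 sum lay below every other library of the study.

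**Figure D3:**
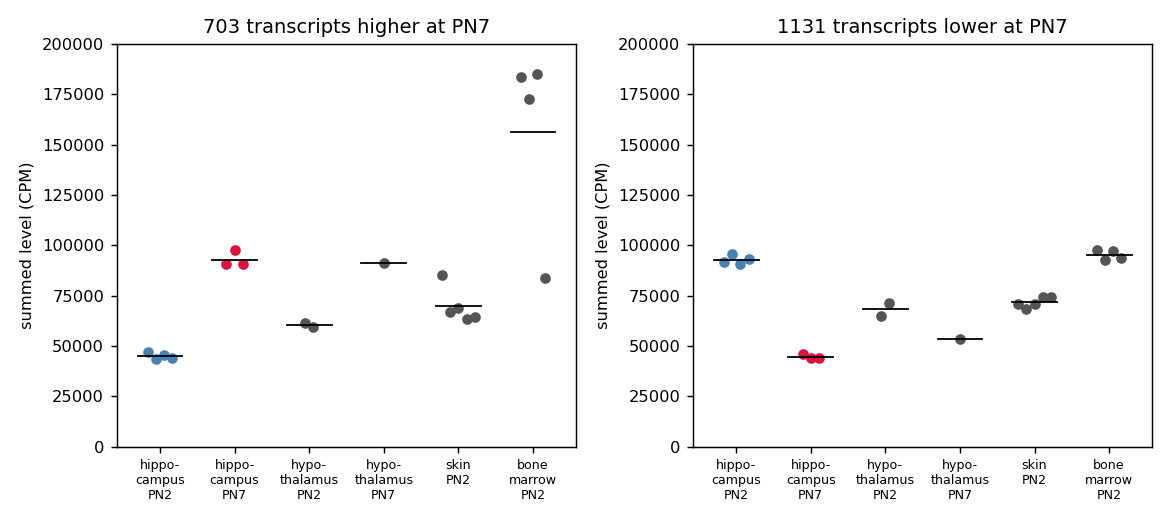
Summed level in CPM (vertical) of the 703 transcripts called higher and the 1131 called lower at PN7 in each of the 19 libraries, by group; points are libraries and lines are group means. The hippocampal libraries chose these transcripts; among the libraries that did not, the PN7 hypothalamus library lies above both PN2 hypothalamus libraries for the risers and below both for the fallers, and bone marrow replicate 4 lies far below the other marrow libraries.

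The hypothalamus gave a second look at the same age step in separate libraries. There the risers summed to 61263 and 59632 CPM at PN2 and to 91123 CPM at PN7, and the fallers to 65087 and 71342 CPM at PN2 and 53671 CPM at PN7. Both sums of the 1 PN7 library lay to the side seen in hippocampus. Most of the risers' difference came from 15 transcripts that were far higher in bone marrow than in skin and are described below as a class: from PN2 to PN7 their sum went from 8024 ± 93.2 CPM (SD, n = 2) to 24703 CPM. For the other 688 risers the sum went from 52423 ± 1060 CPM (SD, n = 2) to 66420 CPM. Of the 703 risers, 453 (64.4%) had a positive log2 fold change in hypothalamus, 240 (34.1%) a negative one and 10 none, counting a change smaller than 1e-06 as none. Over all tested transcripts 43.7% were positive, 43.3% negative and 12.9% without change. Of the 1131 fallers, 830 (73.4%) were negative, 273 (24.1%) positive and 28 without change. The PN7 hypothalamus library lay above both PN2 libraries for 367 risers (52.2%, against 32.1% of all tested). It lay below both for 576 fallers (50.9%, against 19.6% of all tested). Among transcripts of at least 10 CPM over the 10 brain libraries, the shares were 65.8% of risers higher against 46.2% of all, and 78.9% of fallers lower against 53.7% of all. The median log2 fold change there was 0.26 for the risers and -0.32 for the fallers; the hippocampal medians are not a fair scale for these, since the transcripts were selected on them.

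Tested on its own, the hypothalamic age step gave 568 calls of 20521 (2.77%), 320 higher and 248 lower. This test rests on 1 PN7 library, which is assumed to vary like the other groups, and it called 2829 transcripts without hypothalamus PN2 replicate 1 and 140 with limma voom. Called in both regions were 104 transcripts, 5.67% of the hippocampal and 18.3% of the hypothalamic calls, and 81 of the 104 changed in the same direction. Of the 703 risers 3.27% were called higher in hypothalamus, against 1.56% of all tested transcripts. Of the 1131 fallers 5.13% were called lower, against 1.21% of all tested. Over the 9242 tested transcripts of at least 10 CPM, the log2 fold changes of both regions correlated at r = 0.264; this is across transcripts within few libraries and is given as a description.

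The difference between the regions in the age step was also tested directly. It passed the threshold for 537 transcripts (2.62%), with the hippocampal change above the hypothalamic one for 214 (1.04%) and below it for 323 (1.57%). Of these, 203 were also called in hippocampus and 288 in hypothalamus, 28 of them in both, and 74 in neither. Among the 703 risers 67 differed between regions, and for 66 of them the hippocampal change was the higher. Among the 1131 fallers 136 differed, and for 133 the hippocampal change was the lower. Since the hippocampal change enters both the choice and this test, those directions were to a large part given by the choice. The count was 349 without hippocampus PN2 replicate 1 and 2495 without hypothalamus PN2 replicate 1.

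**Figure D4:**
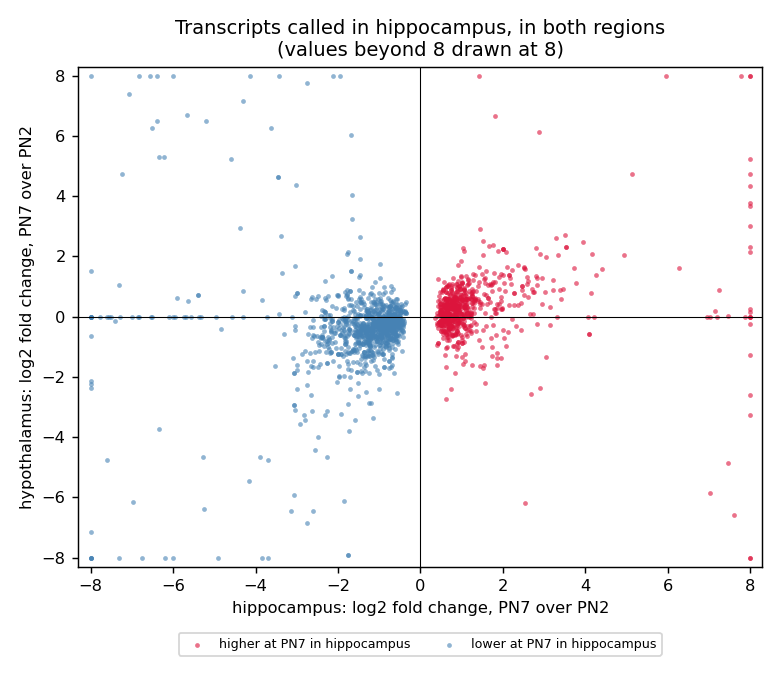
Log2 fold change of PN7 over PN2 in hypothalamus (vertical) against that in hippocampus (horizontal) for the 1834 transcripts called in hippocampus, risers in red and fallers in blue, with values beyond 8 drawn at 8. More red points lie above than below the horizontal line (453 of 703) and more blue points below than above it (830 of 1131).

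The levels of these transcripts in skin and bone marrow were set side by side, in libraries that are not part of the age comparison; the shares below are descriptions with no test, and most called transcripts differed by less than 2-fold between both tissues. Among tested transcripts of at least 10 CPM over the 7 hippocampal libraries, 15.3% were at least 2-fold higher in skin than in marrow and 8.48% at least 2-fold higher in marrow. Of the 592 risers of that level 133 (22.5%) were higher in skin and 57 (9.63%) higher in marrow. Of the 911 fallers 62 (6.81%) were higher in skin and 226 (24.8%) higher in marrow. Without marrow replicate 4, which stood apart, 22.3% of the risers were higher in skin against 15.4% of all, and 24.8% of the fallers were higher in marrow against 9.06% of all. The median log2 ratio of skin over marrow was 0.27 for these risers, -0.50 for these fallers and 0.00 for all. By median, transcripts that fell by PN7 thus lay to the marrow side and those that rose to the skin side. Of the named transcripts, ENSRNOT00000091551.1 lay to the marrow side, and ENSRNOT00000079106.1 and ENSRNOT00000013159.5 to the skin side. The remaining faller, ENSRNOT00000022113.4, was near 0 in both, at 0.164 CPM in skin and 0.0717 CPM in marrow. At that level 1 of the 592 risers (0.169%) and 5 of the 911 fallers (0.549%) were below 1 CPM in both skin and marrow, beside 22 of all 9082 (0.242%).

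**Figure D5:**
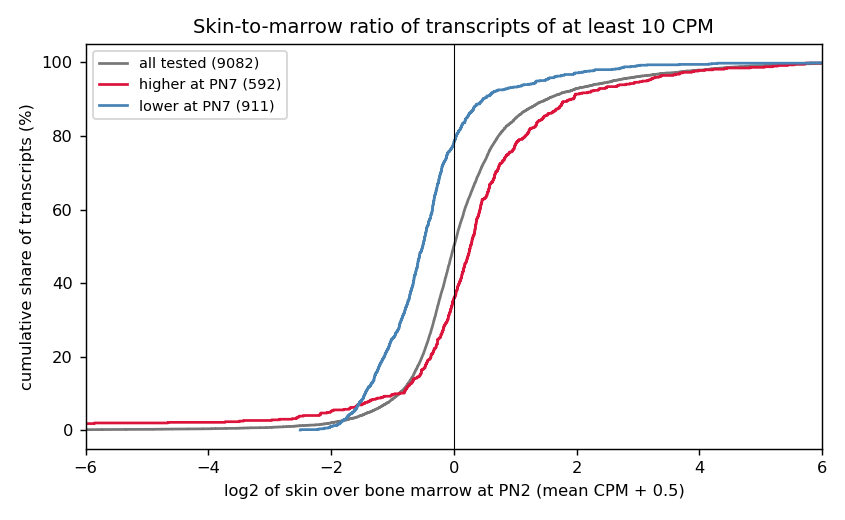
Cumulative share of transcripts (vertical, percent) by log2 ratio of skin over bone marrow at PN2 (horizontal, mean CPM + 0.5), for tested transcripts of at least 10 CPM in hippocampus; risers in red, fallers in blue, all tested in grey. The curve of the fallers lies to the left of that of all tested (median -0.50 against 0.00), and that of the risers to the right over most of its range (median 0.27), apart from a small tail of risers far to the marrow side.

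Transcripts far to the marrow side were examined as a class of their own. A class of 83 transcripts reached 100 CPM or more in marrow and exceeded skin there at least 50-fold, in libraries outside the age comparison. Of these, 15 rose in hippocampus by PN7 (18.1%, against 3.43% of all tested) and 0 fell by edgeR. Of the class, 7 were lower at an unadjusted p below 0.05, and DESeq2 called 6 lower and 16 higher, limma voom 1 and 18. The median log2 fold change of the 83 was 0.58, and of the 15 it was 2.00 with a range of 1.53 to 6.28. The 15 summed to 451, 439, 439 and 806 CPM in the PN2 hippocampal libraries and to 2821, 2107 and 1659 CPM in the PN7 libraries. PN2 replicate 4 was the highest of its age and still below every PN7 library, in libraries that also chose the 15. In hypothalamus the 15 summed to 8090 and 7958 CPM at PN2 and to 24703 CPM at PN7. There 13 of the 15 lay above both PN2 libraries and 3 were called higher. Over all tested transcripts 32.1% lay above both and 1.56% were called higher. The whole class of 83 overlapped between the ages in hippocampus, with sums of 4801, 5433, 4673 and 6810 CPM at PN2 and 8492, 6380 and 5293 CPM at PN7. In hypothalamus it summed to 19834 and 18972 CPM at PN2 and 55381 CPM at PN7. There 34 of the 83 lay above both PN2 libraries, beside 32.1% of all tested transcripts, so this count sets the class little apart. Skin held 55.7 to 77.1 CPM of the 15. Bone marrow replicate 4 held 51107 CPM and the other marrow libraries 131127 to 142430 CPM, far above either brain region. The other 68 transcripts of the class did not pass the test in hippocampus. Without PN7 replicate 1, 8 of the 83 were called. With the class taken without marrow replicate 4 it held 82 transcripts, and 15 rose.

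The mirror class, high in skin and at least 50-fold lower in marrow, numbered 38. In hippocampus 4 of them rose by PN7 (10.5%, against 3.43% of all tested) and 3 fell (7.89%, against 5.51%), with a median log2 fold change of 0.37. These shares rest on few transcripts, and 4 were called without PN7 replicate 2. Without marrow replicate 4 the class held 34 transcripts, of which 4 rose and 3 fell. With the fold limit at 20 the skin class held 81 transcripts, of which 8 rose and 3 fell, and the marrow class 98, of which 15 rose. In that wider marrow class 0 fell by edgeR, 8 were lower at an unadjusted p below 0.05, and DESeq2 and limma voom called 7 and 1 lower.

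Across all transcripts, the PN7 libraries were somewhat less like the other tissues than the PN2 libraries. The mean correlation of a hippocampal library with the 5 skin libraries was 0.904 to 0.921 at PN2 and 0.883 to 0.892 at PN7. With the 4 marrow libraries it was 0.822 to 0.851 at PN2 and 0.793 to 0.818 at PN7. After thinning to equal depth, on log2(CPM + 1), the values were 0.938 to 0.947 at PN2 and 0.920 to 0.925 at PN7 for skin. For marrow they were 0.854 to 0.872 and 0.826 to 0.842, so the ages stayed apart at equal depth. The PN2 hippocampal libraries and all skin and marrow libraries share their age, so tissue and age cannot be told apart in this ordering.

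At equal depth the PN7 libraries detected fewer transcripts, in a design too small to pass the threshold. Thinned to the same total, the PN2 libraries detected 17947, 17771, 17496 and 17671 transcripts and the PN7 libraries 16680, 16200 and 17487. PN7 replicate 3 came within a few transcripts of the lowest PN2 library. The means were 17721 ± 189 (SD, n = 4) and 16789 ± 650 (SD, n = 3), with an exact two-sided permutation p of 0.0571, the smallest that 3 against 4 libraries allow. The top transcript took 6.26% to 11.6% of the counts at PN2 and 5.64% to 5.81% at PN7, again with an exact permutation p of 0.0571. The 100 largest transcripts of a library took 40.7% ± 1.66 of its counts at PN2 (SD, n = 4) and 38.4% ± 0.896 at PN7 (SD, n = 3), with an exact permutation p of 0.114. Adjusted over these 3 tests, the values were 0.0857, 0.0857 and 0.114, so none passed the threshold of 0.05.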

How the data were processed

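The authors deposited 1 table of estimated counts for 29107 Ensembl transcripts in 19 libraries, not normalized between libraries; kallisto and the build Rnor_6.0 are named per the submitters' processing notes, with version and settings not given in the sources used here. The kit, SMART-Seq v4 per the labels' protocols, uses no molecular identifiers. The RefSeq table used here (GRCr8) lists 47357 genes and an Ensembl identifier for 0 of them, so no transcript was named and the marker gene lists drawn up for this work were not matched.

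Counts were rounded and tested with edgeR 4.0.16 (R 4.3.3): filterByExpr over 6 groups left 20521 transcripts, of which 2245 share their values with another; TMM scaling; 1 robust quasi-likelihood fit of all 19 libraries, with Benjamini-Hochberg adjustment. Standard errors were derived from F, and CPM use the TMM-scaled totals. Library measures were compared with exact permutation tests (SciPy 1.17.1); figures used matplotlib 3.10.9. Alternatives used RLE factors, DESeq2 1.42.0, limma 3.58.1 voom, other filters, fewer libraries, a replicate block, merged identical transcripts and thinned counts. Named transcripts were the smallest p and the largest CPM difference per direction, at 100 CPM or more and without overlap. The comparison, classes and rules were chosen with earlier results of these data known. In simulated counts for this comparison with 19563 transcripts, 35% of 2-fold and 77% of 4-fold changes were recovered, with 3 false calls. Changes were planted only in transcripts above a minimum level, and all groups otherwise had the same means. These rates therefore need not hold for the real counts. No replicate pair came near counting noise (lowest chi-square per degree of freedom 16.8).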

Additional observations from a re-analysis of the deposited data

Results flagged for a closer look

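The age step differed between hippocampus and hypothalamus, by the test of the difference itself, for 537 transcripts. Among them were ENSRNOT00000079106.1, with a log2 difference between the age changes of 2.66 (adjusted p = 0.00261, edgeR), and ENSRNOT00000091551.1, with -1.35 (adjusted p = 0.0359, edgeR). Both rest on 1 hypothalamus library of PN7. Both transcripts were also chosen for the smallest p of the hippocampal change, which enters this test, so these p-values are affected by the choice.

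In 25 sets of 4 or 5 library values, 7 had a highest or lowest library far from the others by Dixon's criterion. Chance gives about 1 in 20 for a single set. The sets reuse the same libraries and are not independent, so the 7 cannot be set against that rate. None of the 7 was a PN2 hippocampal library. Groups of fewer than 4 libraries, among them PN7 hippocampus, were not checked. Bone marrow replicate 4 was low, with 83846 CPM of the summed risers against 172547 to 185009 CPM in the other marrow libraries, and its top transcript took 1.97% of the counts. Skin replicate 1, the shallowest skin library at 11704985 counts, was high with 85454 CPM of the summed risers; the other 4 skin libraries averaged 65912 ± 2396 CPM (SD, n = 4). The same library held the highest skin values of ENSRNOT00000079106.1 (1932 CPM) and ENSRNOT00000013159.5 (10148 CPM). Bone marrow replicate 1 was high for ENSRNOT00000091551.1 (265 CPM), and skin replicate 4 for ENSRNOT00000022113.4, at 0.628 CPM from 14 counts.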

How the results depend on the processing

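The direction of all 4 named transcripts held in all 19 other fits, and 3 of them kept their call in each; only ENSRNOT00000022113.4 lost it, in 10. The calls in hippocampus numbered 3099 with DESeq2 (1376 higher, 1723 lower), 4309 with limma voom (2067 and 2242) and 2942 with only the groups compared (1381 higher). Hypothalamus gave 1480, 140 and 225 calls in these fits, and the difference between regions 1436, 119 and 179. Calls of at least 100 CPM numbered 496, 652 and 551, beside 311, and calls in the skin class 12, 21 and 15, beside 7. With the class limit at 20-fold and 200-fold the skin class had 11 and 4 calls. The share of fallers that were lower in hypothalamus was 69.1% with DESeq2, 68.8% with limma voom and 78.9% at 10 CPM or more; that of risers higher was 60.4% with only the groups compared. Leaving out the libraries numbered 4 and 5, chosen after seeing the data, gave 942 calls in hypothalamus, 823 for the difference and 525 of at least 100 CPM. The cause of these shifts was not tested. In the fits of the next paragraph the library left out was a hippocampal or a PN2 hypothalamus library. No skin or marrow library was left out singly in a fit.

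Leaving out 1 library at a time gave 1073 to 2704 calls in hippocampus, 372 to 1110 higher and 701 to 1633 lower, 427 to 2829 in hypothalamus and 349 to 2495 for the difference. It gave 178 to 395 calls of at least 100 CPM, 8 to 19 in the marrow class, 4 to 10 in the skin class, and shares of 62.9% to 68.5% of risers and 60.2% to 76.5% of fallers.

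The replicate block gave 1914 calls in hippocampus, 715 higher and 1199 lower, and 331 for the difference between regions. No clear pairing of the libraries by number was seen. Deviations of same-numbered PN2 and PN7 libraries correlated at 0.0598, 0.0141 and -0.0781, and not every library correlated best with its own number. These values rest on few libraries and cannot exclude a pairing. Of the 6321 transcripts below 1 CPM, 57 were called.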
